A study of Homo sapiens with 19 samples.

Results

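Endogenous retroviruses (ERVs) are held silent by a small set of chromatin proteins, and the data were examined at the 10 genes for TRIM28, SETDB1, DNMT1, DNMT3A, DNMT3B, UHRF1, MORC2, ATRX, DAXX and TET2. These genes were listed by name, with no threshold on a measured value, and were located in the GENCODE v44 annotation of hg38, where they are 10 of 20033 protein-coding genes on chromosomes 1 to 22, X and Y. For each gene, the peaks of histone H3 lysine 27 acetylation (H3K27ac), a mark of active promoters and enhancers, were read at its transcription start sites (TSSs, within 500 bp) and within 50 kb of the gene. Peaks of catalytically dead Cas9 (dCas9) were read over the same intervals.

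Silencing of ERVs begins with KRAB zinc-finger proteins, which bind retroviral sequence and recruit the corepressor TRIM28. TRIM28 in turn brings SETDB1, which methylates lysine 9 of histone H3, and the HUSH complex with MORC2 compacts the marked chromatin. DNA methylation is laid down anew by DNMT3A and DNMT3B and is copied at replication by DNMT1, which UHRF1 guides to newly made DNA, while ATRX and DAXX deposit the histone variant H3.3 and TET2 oxidises methylated cytosine and so works against methylation.

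The series compared leukaemia cells with and without CRISPR interference at LTR2B, an ERV-derived long terminal repeat family, and it held 19 samples in 16 groups. Peak lists of 5 samples were analysed here, 1 library per group, and the other 14 samples were not analysed here. Untransduced HL-60 and Molm13 cells, which derive from acute myeloid leukaemia, gave 20772 and 35136 H3K27ac peaks on these chromosomes. OCI-AML3 cells, also of acute myeloid leukaemia origin, and K562 cells, from chronic myeloid leukaemia in blast crisis, gave 37571 and 37424 peaks, and both carried dCas9 fused to the KRAB repressor domain together with an empty sgRNA vector. The last list held 395 dCas9 peaks, 393 of them on these chromosomes, from K562 cells with the same dCas9-KRAB and 4 single guide RNAs (sgRNAs) against LTR2B. The KRAB domain acts through TRIM28, so the fusion itself uses a product of these genes, and 2 of the 4 H3K27ac lists come from cells that carry it. The lines carrying the fusion and the untransduced lines also differ in origin, so an effect of the fusion and a difference between lines cannot be told apart. With 1 library per line there was no test between lines, and since the lists hold no read numbers the depth of each library was unknown. A gene without a listed peak may therefore still carry acetylation below the caller's threshold.

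The lines were checked against marker genes by the same TSS rule. K562 had a peak at 8 of 8 erythroid markers and the other lines each at 1 of 8, the shared marker being EPOR. Of 10 myeloid markers, Molm13 and OCI-AML3 had 10 marked, HL-60 8 and K562 6. The 4 genes of the HOXA and MEIS1 programme were all marked in Molm13 and OCI-AML3, whereas HL-60 (FLT3) and K562 (MEIS1) each had 1.

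The promoters that the comparisons turn on are shown first. The RefSeq promoter table (GRCh38.p14, 300 bases per window, from 250 before the start) held 16 windows for 7 of the 10 genes, and TRIM28, ATRX and DAXX had no window. All 16 windows equalled the hg38 reference sequence read in the direction of the gene. Capitals mark matches on either strand to any of 6 sequences searched: GGGCGG (the GC box, bound by SP1), CCGGAAG (ETS factors), TGACGTCA (CREB and ATF factors), GCATGCGC (core of the NRF1 site), CCAAT (the CCAAT box, bound by NF-Y) and AAGATGGC (YY1). The 2 DNMT3A windows belong to the canonical start at chr2:25341876-25342175 (minus strand) and to the internal start at chr2:25252266-25252565 (minus strand), the site of most of the acetylation at the gene's starts.
DNMT3A canonical: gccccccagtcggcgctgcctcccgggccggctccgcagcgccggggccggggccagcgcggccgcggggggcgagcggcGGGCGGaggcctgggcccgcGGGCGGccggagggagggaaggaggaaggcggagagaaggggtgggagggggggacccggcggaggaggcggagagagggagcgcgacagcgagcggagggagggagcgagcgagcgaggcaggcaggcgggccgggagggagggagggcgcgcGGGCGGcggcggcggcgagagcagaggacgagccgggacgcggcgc
DNMT3A internal: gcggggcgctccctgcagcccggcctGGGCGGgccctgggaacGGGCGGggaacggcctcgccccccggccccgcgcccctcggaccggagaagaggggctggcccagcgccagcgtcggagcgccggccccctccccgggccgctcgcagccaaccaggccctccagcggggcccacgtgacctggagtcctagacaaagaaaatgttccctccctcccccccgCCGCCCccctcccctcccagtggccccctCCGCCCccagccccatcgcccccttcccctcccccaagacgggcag
The DNMT1 window lies at chr19:10194904-10195203 (minus strand), the UHRF1 window at chr19:4909251-4909550 (plus strand) and the TET2 window at chr4:105146626-105146925 (plus strand), each at the canonical start.
DNMT1: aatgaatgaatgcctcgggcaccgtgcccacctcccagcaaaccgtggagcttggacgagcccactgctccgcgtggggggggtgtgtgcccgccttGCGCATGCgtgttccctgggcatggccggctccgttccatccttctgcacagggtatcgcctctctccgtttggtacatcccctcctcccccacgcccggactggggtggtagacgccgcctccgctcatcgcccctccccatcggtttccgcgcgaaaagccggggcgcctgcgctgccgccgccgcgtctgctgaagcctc
UHRF1: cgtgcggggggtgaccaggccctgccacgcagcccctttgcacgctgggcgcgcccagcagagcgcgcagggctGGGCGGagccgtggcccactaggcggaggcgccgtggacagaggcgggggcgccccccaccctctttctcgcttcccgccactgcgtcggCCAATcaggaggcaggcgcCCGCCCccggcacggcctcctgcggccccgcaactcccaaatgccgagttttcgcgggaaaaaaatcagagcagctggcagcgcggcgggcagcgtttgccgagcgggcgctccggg
TET2: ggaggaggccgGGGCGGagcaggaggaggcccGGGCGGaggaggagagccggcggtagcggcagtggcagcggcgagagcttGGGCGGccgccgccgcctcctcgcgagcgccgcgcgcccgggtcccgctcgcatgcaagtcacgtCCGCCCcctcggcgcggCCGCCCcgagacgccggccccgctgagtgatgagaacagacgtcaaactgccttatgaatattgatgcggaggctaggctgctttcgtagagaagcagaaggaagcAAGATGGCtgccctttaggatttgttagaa
SETDB1, at chr1:150926113-150926412 (plus strand), is shown because its window held the single ETS match among the members.
SETDB1: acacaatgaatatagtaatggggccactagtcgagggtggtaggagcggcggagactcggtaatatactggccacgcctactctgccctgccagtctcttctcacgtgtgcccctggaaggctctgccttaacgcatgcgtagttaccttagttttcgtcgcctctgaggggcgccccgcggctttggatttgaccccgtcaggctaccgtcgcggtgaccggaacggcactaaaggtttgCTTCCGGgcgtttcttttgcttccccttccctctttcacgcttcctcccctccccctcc

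The canonical windows of 6 genes were rich in CpG. Their ratio of observed to expected CpG was 0.87 at SETDB1, 0.87 at DNMT1, 1.02 at DNMT3A, 0.88 at UHRF1, 1.06 at MORC2 and 1.03 at TET2, against a median of 0.58 over 34941 windows of 27165 genes. DNMT3B had only an internal window, with a ratio of 0.12. Of all windows, 44.9% held the GC box, 34.6% the CCAAT box, 10.2% the ETS sequence, 3.02% the NRF1 core, 2.89% the YY1 sequence and 1.84% the CREB and ATF sequence. Among the canonical windows, TET2 held 5 GC boxes and the YY1 sequence, DNMT3A held 3 GC boxes, UHRF1 and MORC2 each held 2 GC boxes and 1 CCAAT box, DNMT1 held the NRF1 core and none of the other 5 sequences, and SETDB1 held the ETS sequence 9 bases before the start. No member window held the CREB and ATF sequence. These are matches of letters and say nothing of binding.

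Most of the genes carried H3K27ac at a start site in every line. A peak lay within 500 bp of any annotated TSS of 8 of the 10 genes in HL-60, where 44.7% of all protein-coding genes had one. In Molm13 the count was 10 of 10 (53.9% of all genes), in OCI-AML3 10 of 10 (57.7%) and in K562 10 of 10 (55.9%). In all 4 lines together, 8 of the 10 were marked, against 40.5% of protein-coding genes. The exceptions were the de novo methyltransferases DNMT3A and DNMT3B, which had no TSS peak in HL-60, the shortest list. With every list cut to its 20772 strongest peaks, the length of the HL-60 list, Molm13 also lost the call at DNMT3B and K562 the call at UHRF1. At the canonical TSS alone (the start of the Ensembl canonical transcript), HL-60 had 7 (41.0% of all genes), Molm13 9 (49.9%), OCI-AML3 10 (54.0%) and K562 9 (52.1%), and 7 of the 10 genes were marked in all 4 lines (37.4%).

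A pair of measures describes each canonical-TSS peak, its width and its fold enrichment over the local background as the authors' peak caller gave it. Because the lists differ in their general level, each value is also given as a percentile among all peaks at a canonical TSS of a protein-coding gene in the same list, of which HL-60 had 7050, Molm13 8589, OCI-AML3 9378 and K562 8952. Among the marked members, HL-60 had a median fold percentile of 72.2, Molm13 of 68.4, OCI-AML3 of 59.0 and K562 of 41.1. The median width percentile varied less, at 63.7, 60.9, 56.1 and 57.0 in the same order.

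**Figure D1:**
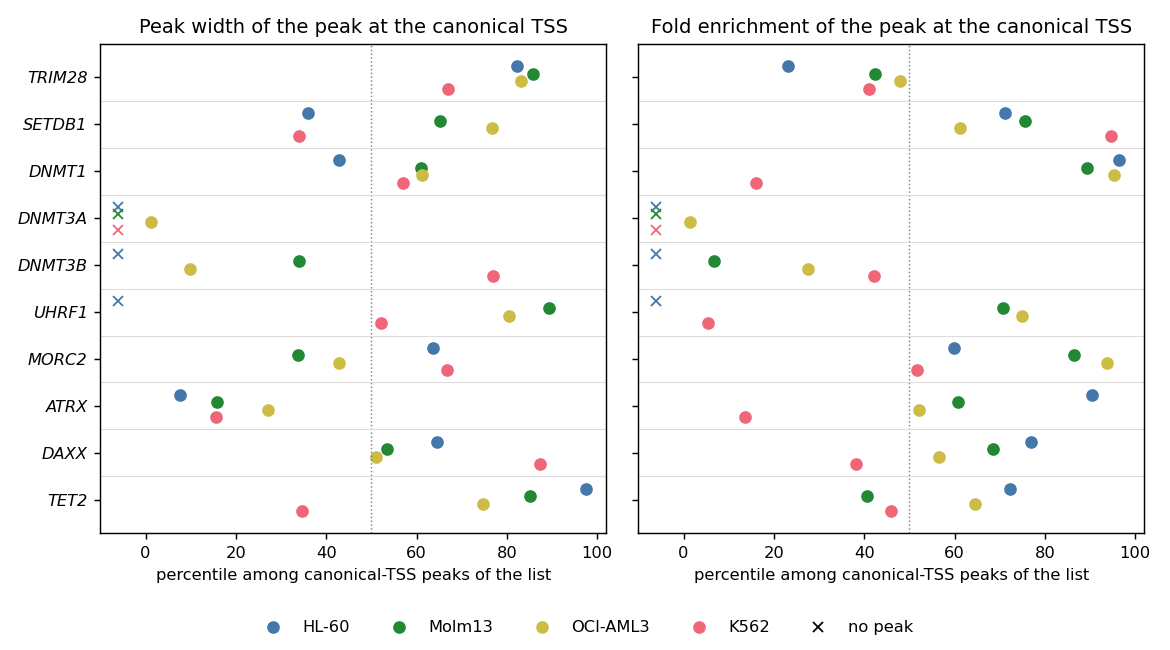
Percentile of the width (left) and of the fold enrichment (right) of the H3K27ac peak at each gene's canonical TSS, among all canonical-TSS peaks of the same list, with 1 point per cell line and a cross where no peak was listed. TRIM28 lies between 67.0 and 85.8 for width in all 4 lines, ATRX between 7.56 and 27.02, and DNMT1 falls from 89.4 or more for fold enrichment in HL-60, Molm13 and OCI-AML3 to 16.1 in K562.

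TRIM28, the corepressor that KRAB zinc-finger proteins recruit, had a wide and moderately enriched peak in every line. HL-60 had a peak of 2282 bp, Molm13 of 3715 bp, OCI-AML3 of 3753 bp and K562 of 3687 bp. The width percentiles were 82.3, 85.8, 83.1 and 67.0 in that order, all above the median canonical-TSS peak. The fold enrichment was 3.96, 5.67, 3.85 and 3.46 in the same order, at percentiles 23.2, 42.4, 47.9 and 41.1 among canonical-TSS peaks, all below the median of those peaks. The peak also lay within 500 bp of the start of RN7SL525P, a gene annotated as miscellaneous RNA on the opposite strand with its TSS 486 bp away.

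SETDB1, which writes histone H3 lysine 9 methylation, was marked by a narrower and more enriched peak. It was 1029 bp wide in HL-60, while Molm13 had 2340 bp, OCI-AML3 3184 bp and K562 1987 bp. Fold enrichment was 6.28, 8.14, 4.20 and 4.73 in that order, at percentiles 71.2, 75.6, 61.3 and 94.6, so that SETDB1 alone of the 10 genes had its highest rank in K562 with a peak in all 4 lines. K562 had a second, weaker peak of 649 bp (fold enrichment 2.51) at a later SETDB1 start, 34807 bp into the gene, and no other line had a peak there.

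MORC2, an ATPase that acts with the HUSH complex, shared its peak with the noncoding RNA gene TUG1, whose TSS lies 471 bp away on the opposite strand and which GENCODE v44 lists as protein-coding. In HL-60 the peak measured 1595 bp (fold enrichment 5.59) and in OCI-AML3 1796 bp (5.50), and both reached about the same distance into MORC2, 251 and 256 bp. In Molm13 the peak of 1408 bp (9.50) ended 131 bp before the MORC2 start, on the TUG1 side. In K562 it measured 3676 bp (3.64) and ran 2018 bp into MORC2. Acetylation of the 2 genes at this shared promoter cannot be told apart.

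DNMT1, the maintenance methyltransferase, had a strongly enriched peak in the 3 acute myeloid leukaemia lines and a weakly enriched one in K562. HL-60 had a fold enrichment of 10.02, Molm13 of 10.02, OCI-AML3 of 5.66 and K562 of 2.97, at percentiles 96.3, 89.4, 95.2 and 16.1. The width rose in the opposite order, from 1153 bp in HL-60 through 2171 bp in Molm13 and 2393 bp in OCI-AML3 to 3068 bp in K562. The median canonical-TSS peak also widened over these lists, from 1290 bp in HL-60 to 2676 bp in K562. As percentiles the DNMT1 widths were 42.7, 60.9, 61.3 and 57.0, so the K562 peak was not the widest for its list. In HL-60 the peak began 75 bp before the start, so it covered 125 of the 300 bases of the promoter window shown above, while the other 3 lines covered all 300. A second region upstream of the canonical start, between 3206 and 4742 bp before it, was marked in Molm13, OCI-AML3 and K562 and not in HL-60.

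UHRF1, the protein that leads DNMT1 to hemimethylated DNA, had no peak at its canonical TSS in HL-60. A 1077 bp peak in HL-60 (fold enrichment 3.07) began 1211 bp downstream, within 500 bp of later starts only. In Molm13 the canonical peak measured 4315 bp (7.66), in OCI-AML3 3511 bp (4.60) and in K562 2794 bp (2.62). Its fold percentile was 70.8 in Molm13 and 75.0 in OCI-AML3 but 5.42 in K562, where the peak began 137 bp past the start. The canonical promoter window shown above was covered over 120 bases in Molm13, 285 in OCI-AML3 and 0 in HL-60 and K562. Upstream, Molm13 had an 8827 bp peak at chr19:4893944-4902770 (fold enrichment 5.30), and OCI-AML3 had peaks of 4055 bp and 3777 bp in the same stretch. In this stretch HL-60 had a peak of 790 bp (q-value 0.0547) and K562 none.

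**Figure D2:**
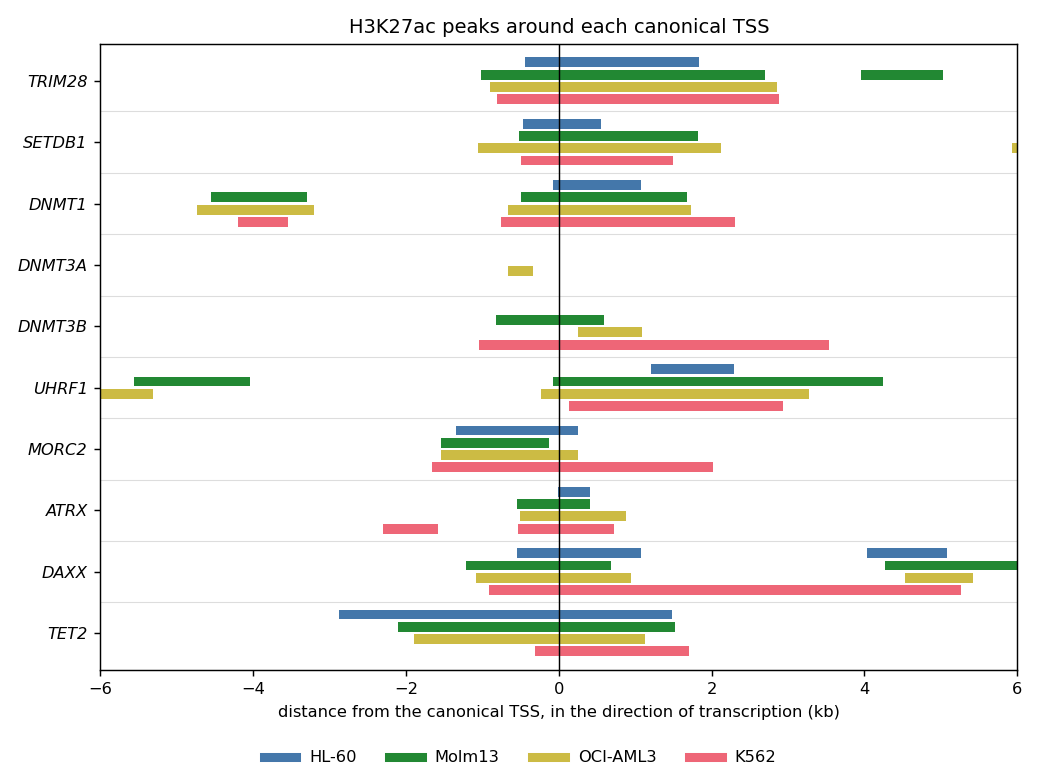
Extent of every H3K27ac peak within 6 kb of each canonical TSS (vertical line), plotted by distance in the direction of transcription, with 1 row per cell line. HL-60 has no bar at the canonical starts of DNMT3A, DNMT3B and UHRF1, TET2 peaks shorten on the upstream side from HL-60 (2876 bp) to K562 (312 bp), and DAXX is widest in K562 (6180 bp).

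DNMT3A, a de novo methyltransferase, was the single gene whose canonical promoter was unmarked in most lines. At the canonical start, chr2 position 25341925, the only peak was a 332 bp peak in OCI-AML3 with fold enrichment 2.26 and q-value 0.0385. It stood at percentile 1.41 for fold and 1.19 for width. Its nearer edge lay 338 bp upstream, and it covered the earlier starts of transcripts DNMT3A-201, DNMT3A-204 and DNMT3A-206. The canonical promoter window shown above, with a CpG ratio of 1.02, was covered by 0 bases of peak in every line. Between 88903 and 90666 bp downstream, at the start of the transcripts DNMT3A-203, DNMT3A-205 and DNMT3A-217, Molm13 had a peak of 1411 bp (fold enrichment 5.35), OCI-AML3 one of 1571 bp (3.53) and K562 one of 1764 bp (3.299). All 3 covered the whole of the internal window shown above, and HL-60 had no peak there.

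Inside the DNMT3A gene, the lines shared other regions that lie at no TSS. A region at chr2:25293675-25295797 was marked in HL-60 (1452 bp, fold enrichment 3.01, q-value 0.0442), Molm13 (2116 bp, 6.65) and OCI-AML3 (1519 bp, 3.48). Another, at chr2:25314115-25316826, was joined from peaks of the same 3 lines (fold enrichment 3.03, 3.16 and 3.29). There the HL-60 and Molm13 peaks (q-values 0.0166 and 0.0252) did not overlap each other, and the OCI-AML3 peak overlapped both. Regions at chr2:25262545-25265119 and chr2:25278978-25281893 were marked in Molm13 and OCI-AML3 only. K562 had its single peak touching the gene at the internal start. Within 50 kb of DNMT3A, HL-60 had 3 peaks, Molm13 6, OCI-AML3 10 and K562 3.

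**Figure D3:**
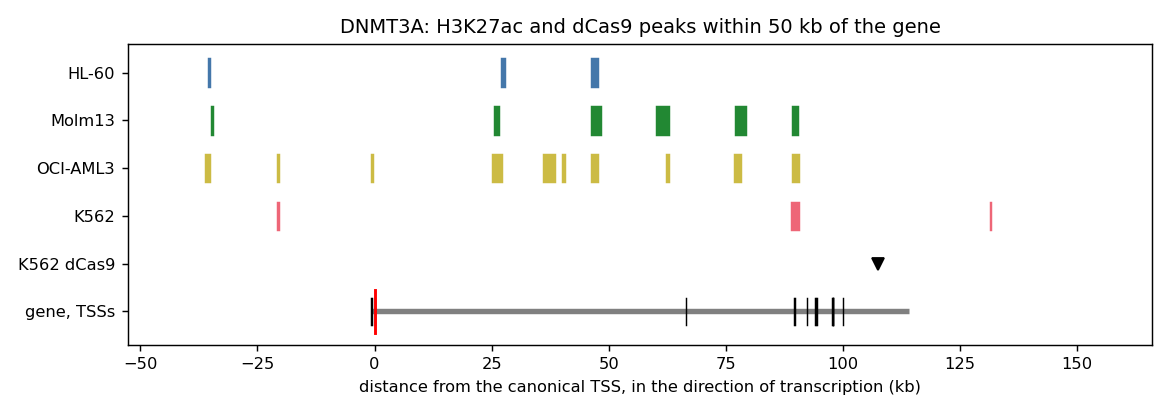
Peaks within 50 kb of DNMT3A by distance from the canonical TSS in kb (red tick, 0), with black ticks for the other annotated TSSs, 1 row of H3K27ac peaks per cell line and a triangle for the dCas9 peak of K562. The peak at the internal start is present in Molm13, OCI-AML3 and K562, peaks between the canonical and the internal start occur in the 3 acute myeloid leukaemia lines and not in K562, and the dCas9 peak lies 107562 bp from the canonical start.

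DNMT3B, the other de novo methyltransferase, had its widest start peak in K562. HL-60 had no peak at its start, OCI-AML3 had one of 842 bp (fold enrichment 3.32) that began 250 bp downstream, Molm13 one of 1412 bp (3.48, q-value 0.00908) and K562 one of 4581 bp (3.49). The width percentiles were 9.91 in OCI-AML3, 33.9 in Molm13 and 77.0 in K562, whereas the fold percentiles stayed below the median canonical-TSS peak at 27.5, 6.65 and 42.2. Within 50 kb, HL-60 had 1 peak, Molm13 4, OCI-AML3 6 and K562 9. The HL-60 peak lay at the start of MAPRE1, a neighbouring gene that was marked in all 4 lines and is named here after its values were seen. Of the K562 peaks, 6 lay at no TSS, among them 3948 bp at chr20:32750106-32754053 upstream and 1864 bp at chr20:32769536-32771399 inside the gene, both found in K562 alone.

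**Figure D4:**
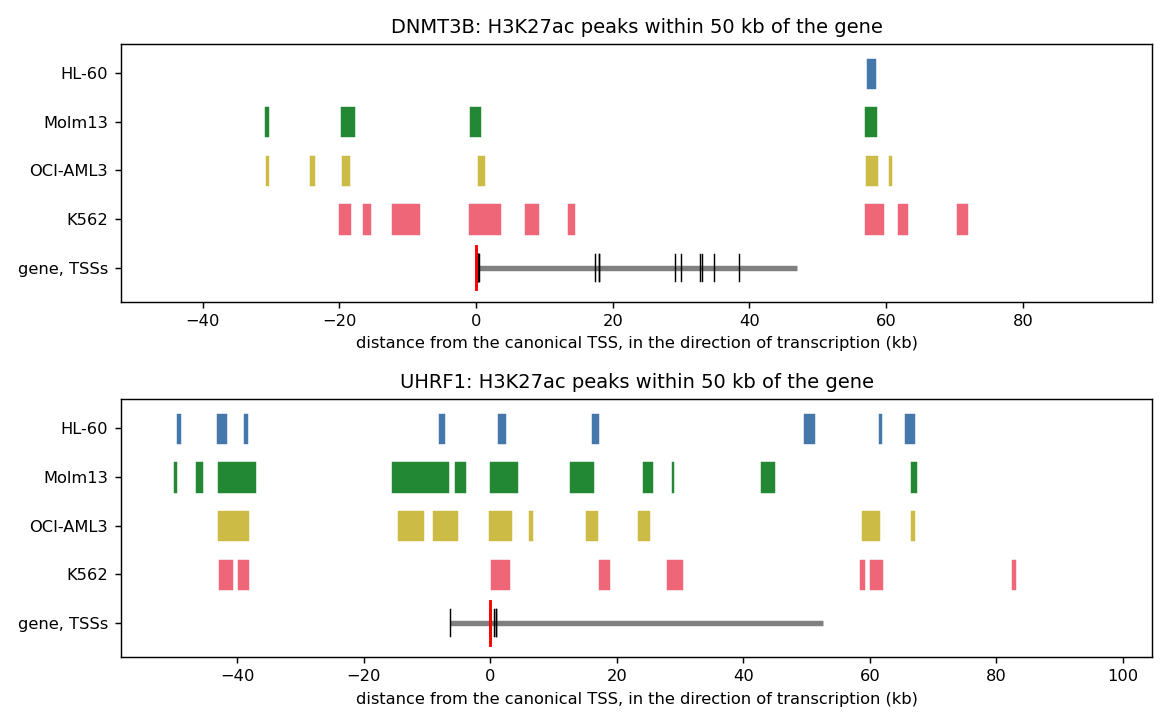
Peaks within 50 kb of DNMT3B (upper) and UHRF1 (lower) by distance from the canonical TSS in kb (red tick, 0), with 1 row per cell line and black ticks for the other annotated TSSs. Around DNMT3B K562 has 9 peaks and HL-60 1. Over chr19:4893944-4905460, upstream of the canonical UHRF1 start, Molm13 and OCI-AML3 have wide peaks, HL-60 a narrow one (790 bp) and K562 none. Peaks of Molm13 and OCI-AML3 there lie within 500 bp of the earliest UHRF1 start and of a start of ARRDC5.

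ATRX, a chromatin remodeller on the X chromosome, had a narrow peak in every line. HL-60 had 425 bp, Molm13 959 bp, OCI-AML3 1385 bp and K562 1258 bp, at width percentiles 7.56, 15.9, 27.02 and 15.6. Fold enrichment was 8.34, 6.87, 3.97 and 2.90, at percentiles 90.4, 60.8, 52.1 and 13.7, so the narrowest peak ranked highest. Along the 281354 bp of the gene only 1 further peak was listed, 406 bp in K562. DAXX, the histone chaperone that works with ATRX, had a start peak of 1621 bp (fold enrichment 6.75) in HL-60, and this peak measured 1908 bp (7.47), 2021 bp (4.08) and 6180 bp (3.42) in Molm13, OCI-AML3 and K562. In K562 this peak ran through the whole gene to the start of ZBTB22, which had a peak of its own in the other 3 lines.

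TET2, the dioxygenase that oxidises 5-methylcytosine, had the widest peak of the members in HL-60, at width percentile 97.5. HL-60 had 4356 bp (fold enrichment 6.34), Molm13 3624 bp (5.54), OCI-AML3 3025 bp (4.28) and K562 2016 bp (3.54). The 3 acute myeloid leukaemia lines therefore held the wider peaks, at percentiles 97.5, 85.2 and 74.6, and K562 the narrowest at 34.7. The difference lay upstream, where the peak began 2876, 2108, 1900 and 312 bp before the canonical start, while its downstream edge fell between 1124 and 1703 bp past it. The earlier TET2 start, 1001 bp upstream, was thus covered in HL-60, Molm13 and OCI-AML3 and not in K562. Upstream, from 31026 bp before the canonical start, HL-60, Molm13 and OCI-AML3 shared a region at chr4:105113433-105115850, at no TSS, which K562 lacked.

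Within 50 kb of the 10 genes, HL-60 had 48 peaks, Molm13 71, OCI-AML3 70 and K562 69. The median per member was 5, 6.5, 7 and 8 peaks, against 2, 3, 3 and 4 per protein-coding gene. The span counted includes the gene itself, and member genes ran from 4459 bp (DAXX) to 281354 bp (ATRX). Counts were not adjusted for gene length or for neighbouring genes. At least 1 peak within 50 kb was found for all 10 members in each line, as for 78.6%, 84.3%, 84.2% and 80.6% of protein-coding genes. DNMT1 had 9, 19, 14 and 15 in that order, the highest count in Molm13, OCI-AML3 and K562 and tied with UHRF1 in HL-60. ATRX had 1, 2, 1 and 3, the lowest in Molm13 and OCI-AML3 and tied with DNMT3B and MORC2 in HL-60, while in K562 MORC2 and TET2 had fewer (2 each). Joined where they overlapped, the peaks formed 118 regions, of which 25 were marked in 4 lines, 17 in 3, 12 in 2 and 64 in 1. Of 18 regions at a TSS of a member, 8 were marked in 4 lines and 4 in 3. Of 68 regions at no TSS, 52 were marked in a single line and 1 in all 4, the latter at chr19:58513640-58515044 upstream of TRIM28. K562 accounted for 27 of the 64 regions found in 1 line, Molm13 for 17, OCI-AML3 for 13 and HL-60, the shortest list, for 7.

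**Figure D5:**
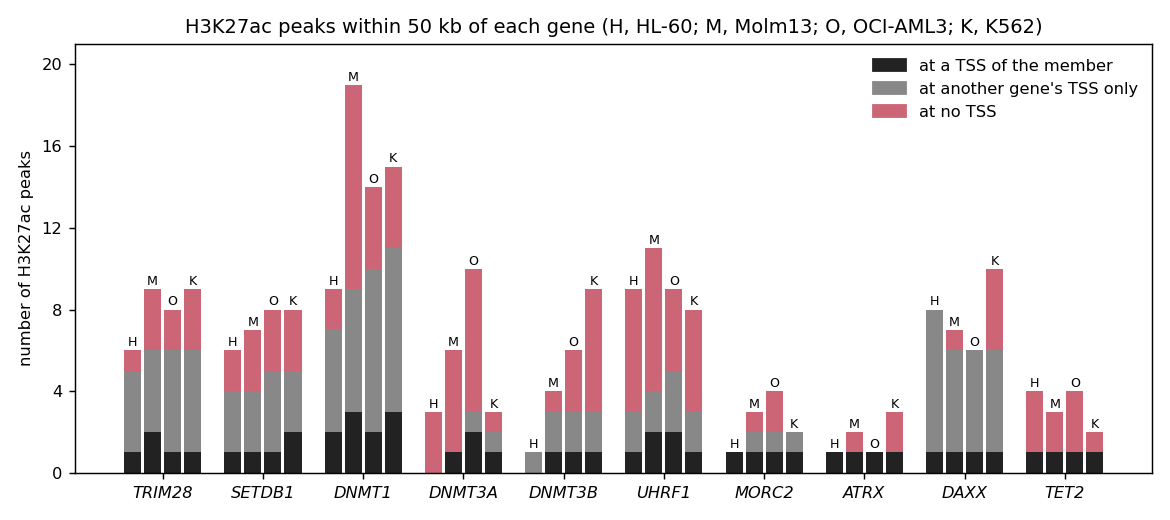
Number of H3K27ac peaks within 50 kb of each gene in each cell line (bars, lettered by line), split into peaks at a TSS of the gene, at a TSS of another gene only and at no TSS. DNMT1 in Molm13 has the tallest bar (19 peaks), HL-60 has no peak at a DNMT3A or DNMT3B start, and the DNMT3B bars are 1, 4, 6 and 9.

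Most partner genes of the same pathways also had a TSS peak. Of 39 related genes, HL-60 had one at 32 (44.7% of all protein-coding genes), Molm13 at 34 (53.9%), OCI-AML3 at 35 (57.7%) and K562 at 34 (55.9%), and 32 were marked in all 4 lines (40.5%). The 3 HUSH genes, the 6 genes of histone H3 lysine 9 methylation, the 2 H3.3 genes and the 6 genes of histone deacetylation and demethylation were marked in every line. No peak was found in any line at DNMT3L, a cofactor of de novo methylation, at MORC1 or MORC4, relatives of MORC2, or at PIWIL2, of the piRNA pathway. CBX1, a reader of methylated lysine 9, lacked a peak in HL-60 only. TET1, a relative of TET2, was marked in OCI-AML3 (375 bp, fold enrichment 3.06) and in K562 (4148 bp, 5.35). ZFP57, a KRAB zinc-finger protein of imprinted regions, was marked in Molm13 (890 bp, 5.98) and OCI-AML3 (1072 bp, 3.44).

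The 3 members whose width percentile varied most between lines were UHRF1, DNMT3B and TET2, and the genes most like them were sought by the mean absolute difference of the width percentile over the 4 lists, with an absent peak set to 0. For UHRF1 these were PIK3IP1 (difference 2.20), SUN2 (2.29) and SPHK1 (2.85). DNMT3B was followed most closely by SEPTIN11 (2.70), SUOX (2.77) and TLE6 (3.09). TET2 was nearest to CYB5R1 (3.61) and to NDUFA11 and ENSG00000267740 (4.04 each), which share a peak. The likeness rests on 4 values per gene.

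The dCas9 list from K562 cells with LTR2B sgRNAs held 1 peak in or within 50 kb of the 10 genes, in DNMT3A, where 3.19% of protein-coding genes had one. The peak lay at chr2:25234302-25234450, 149 bp wide, with fold enrichment 11.46 and q-value 1.14e-20, and ranked 94 of 393 by fold enrichment. It covered 119 bp of exon 23 of 23 of the canonical transcript, in coding sequence. No H3K27ac peak of any line overlapped it, and the nearest in K562 lay 16809 bp away. The 4 sgRNAs, each of 20 bases, are printed to compare them with this site.
sgRNA 1: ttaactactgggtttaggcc
sgRNA 2: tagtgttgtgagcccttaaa
sgRNA 3: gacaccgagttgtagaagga
sgRNA 4: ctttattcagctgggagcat
In the DNMT3A peak the sequence nearest to any of them, followed by the NGG motif that Cas9 needs, was at chr2:25234412-25234434 (minus strand) and had 10 mismatches to sgRNA 4. It is shown with its 3 bases of NGG motif, capitals marking the bases shared with the sgRNA.
nearest site to sgRNA 4: CTTTtcTCccCcaGGgtatTtgg
Sites with at most 3 mismatches were found inside 267 of the 393 dCas9 peaks (67.9%), and the DNMT3A peak was among the 126 without one. Among those 126 it ranked 4 by fold enrichment, where the median was 5.79 against 8.93 for peaks with a site. Of the peaks without a site, 9 overlapped a coding exon, and of the 267 with a site 0 did. Across the genome, 2379 sites with at most 3 mismatches were found, and 0 of the 10 genes had one within 50 kb, against 6.46% of protein-coding genes. What the dCas9 peak in DNMT3A reflects was not tested.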

How the data were processed

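ChIP-seq peak lists of 5 samples were used, and samples were grouped by their titles. Per the study's methods, the authors aligned reads to hg38 with Bowtie2, kept uniquely mapped reads and ran MACS2 with a q-value threshold of 0.05, in broad mode for H3K27ac. Submitters' processing notes name Trim Galore 0.4.5, Bowtie2 2.3.4 and MACS2 2.1.1. The control library used for calling is not given in the sources used here. The deposited lists give a score, the fold enrichment (a ratio to local background), and the −log10 p-value and −log10 q-value of each peak. In the deposited H3K27ac lists the largest q-value was 0.0995, and 5.46% to 15.0% of peaks had a q-value above 0.05. Filtering to uniquely mapped reads lowers signal over near-identical repeats. In broad mode the enrichment is averaged over the region, so fold enrichment and width are not independent.

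Genes and TSSs came from GENCODE v44 and promoter sequences from RefSeq (GRCh38.p14). Coordinates are 1-based, overlaps needed 1 bp, and a gene was called where a peak came within 500 bp of any TSS. At a canonical TSS the nearest peak was taken. Sites of the sgRNAs, read from the study's reagent list, were searched on both strands of hg38. Peaks on the 24 main chromosomes were used, and none of these ended past its chromosome in hg38. Lookups, planted sgRNA sites and planted motifs were tested on simulated data. Python 3.11.15, numpy 2.4.6, pandas 2.3.3 and bedtools 2.31.1 were used.

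The members and the gene lists were chosen with earlier results of these data known. All 10 members are named, as are related genes unmarked in at least 1 line, the 3 genes most like each of the 3 most variable members, and neighbours that share a peak. With 1 library per analysed group no test was made. Depth is unknown, so no interval could be given. Alternatives were other distances, stricter q-values, equal list lengths, merged peaks, other percentile sets and more mismatches.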

Additional observations from a re-analysis of the deposited data

How the results depend on the processing

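No paired analysis was possible because no result came from a test and every group had a single library. Of 92 values recomputed under an alternative, 84 stayed within 1.5 times the reported one. Within 10 kb instead of 50 kb of the genes HL-60 had 23 peaks, Molm13 38, OCI-AML3 35 and K562 32, since a smaller span was counted. With q below 0.001 they numbered 25 in HL-60, 42 in Molm13 and 38 in K562, since fewer peaks were counted. The median fold percentile in K562 was 76.3 among all peaks of the list, against 41.1 among canonical-TSS peaks, since peaks away from a TSS have lower values. Single calls that changed were those of weak or displaced peaks: with q below 0.001 the TSS call was lost for UHRF1 in HL-60, DNMT3B in Molm13, and UHRF1 and ATRX in K562. With each list cut to the 20772 strongest peaks of the shortest, it was lost for DNMT3B in Molm13 and UHRF1 in K562. When the peak had to cover the TSS base itself, it was lost for UHRF1 in HL-60 and MORC2 in Molm13. The dCas9 peak in DNMT3A had no sgRNA site at up to 5 mismatches. Unknown depth limits every absent call, above all in HL-60, the shortest list.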
